A study of Mus musculus with 2 samples.

Results

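The AP-1 and Egr families include classic immediate early genes, and 10 genes of these families were examined for binding of Dlx5 in a mouse T-cell lymphoma, out of 21887 protein-coding genes in the gene table. They were taken by name as the Fos genes (Fos, Fosb, Fosl1 and Fosl2), the Jun genes (Jun, Junb and Jund) and the Egr genes (Egr1, Egr2 and Egr3), and all 10 names were found in the RefSeq gene table of mm10. Each gene body and the 10 kb on either side were searched for intervals called in the Myc-Tag ChIP. The material came from Lck-Dlx5 transgenic mice, in which the T-cell promoter Lck drives a Dlx5 protein that carries a short Myc-Tag peptide, so that an antibody to the tag recovers the DNA held by the transgene's product. The data comprise 1 Myc-Tag ChIP library, labelled C57BL/6, and 1 input library, labelled C57BL/7, both given as primary T-cell lymphoma. The methods name instead a lymphoma cell line, which stands for 1 tumor, and an IgG control. There were no replicates, untreated animals or non-transgenic cells, and every difference in height described here is therefore without a replicate check. The files hold called intervals with a summit and its height, given as an integer whose scaling is not stated, and the read depth behind it is unknown.

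AP-1 is a dimer of basic leucine zipper proteins, in which a Fos protein pairs with a Jun protein to bind DNA, while Jun proteins can also pair among themselves. The Egr proteins are zinc finger factors that bind GC-rich sites. Many genes of both groups, though not Jund, are known to be transcribed within minutes after T-cell receptor or growth factor signals. The MAP kinases and serum response factor act in part of this induction. Egr genes are known for their part in the passage of thymocytes through selection. These are the features for which the genes were grouped, and mRNA was not measured in these libraries.

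Only 1 of the 10 genes, Fosl2, had a Myc-Tag interval (10%, exact 95% binomial interval 0.253 to 44.5%, covering counting error only). By the same rule, 4168 of 21887 protein-coding genes had one, or 19.0%. The share of the AP-1 and Egr genes was thus lower than that background, but its counting interval included it. Because the genes are short, with a median body of 4.52 kb against 17.2 kb for all protein-coding genes, their windows are small. Among the 12243 protein-coding genes no longer than Fosl2, the longest of the 10, 16.8% had an interval. On the chromosomes that carry the 10 genes the share was 19.1%. The 9 other genes, including Fos, Jun and Egr1, had no interval in this window, and binding below the calling threshold is not listed in the files.

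Fosl2 encodes Fra-2, a Fos protein that pairs with Jun proteins. The gene spans chr5:32136472-32157840 on the plus strand of mm10. Its interval, chr5:32135266-32136137, was 872 bp wide and lay wholly upstream of the gene, from 1206 to 335 bp before the listed transcription start. The summit at 32135808 was 664 bp before the start. The height was 13, whereas the median over all 3477 Myc-Tag summits was 16 and the lower quartile was 13. Of the 3477 summits, 2464 (70.9%) were taller, 365 had the same height and 648 were lower. The Fosl2 summit thus stood in the lower part of the called range, which ran from 9 to 301. Of the 4168 protein-coding genes with an interval, 3171 (76.1%) had a summit taller than that of Fosl2. At heights of at least the upper quartile of 19, 6.05% of all protein-coding genes had an interval and 0 of the 10 genes did. The input library, with 28 called intervals in all, each overlapping a Myc-Tag interval, had no call there. No other gene of the RefSeq table, coding or noncoding, lay within 10 kb of it.

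**Figure D1:**
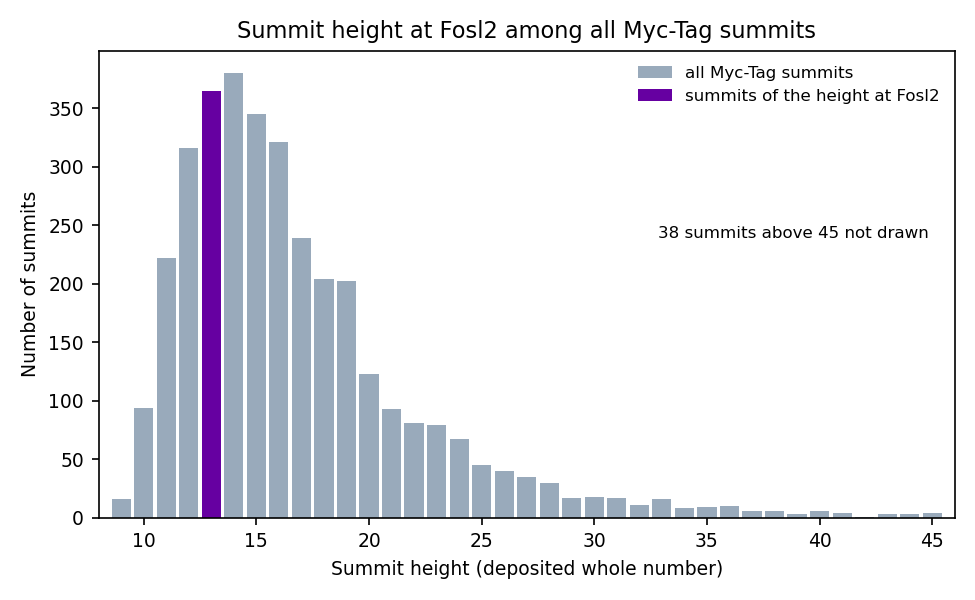
Number of Myc-Tag summits (vertical axis) at each deposited summit height (horizontal axis, whole number without stated units) in the 1 Myc-Tag library, with the bar at the height of the Fosl2 summit in purple; 38 summits above 45 are not drawn. The Fosl2 height of 13 lies left of the median of 16, and 365 summits share it.

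Promoter sequences were listed by RefSeq (GRCm38.p6) for 7 of the 10 genes, with 11 starts in all because Egr2 has 5, and for Egr1, Egr3 and Fosl1 none was used. The 250 bases before the start of Fosl2 are shown because they adjoin the interval, whose end lies 85 bp before the first base printed. Those of Fos and Jun, the founding members of AP-1, are shown as promoters without an interval nearby. All are given 5′ to 3′ on the strand of the gene, and capitals mark matches to the Sp1 site GGGCGG on either strand, the only motif of those searched that was found in these 3 stretches. Fosl2 is read from chr5:32136222-32136471 on the plus strand, Fos from chr12:85473640-85473889 on the plus strand and Jun from chr4:95052223-95052472 on the minus strand.
Fosl2: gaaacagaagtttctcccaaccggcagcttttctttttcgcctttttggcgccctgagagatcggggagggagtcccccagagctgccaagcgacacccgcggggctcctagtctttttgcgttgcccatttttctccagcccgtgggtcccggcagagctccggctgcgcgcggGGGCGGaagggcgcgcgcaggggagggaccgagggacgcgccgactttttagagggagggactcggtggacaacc
Fos: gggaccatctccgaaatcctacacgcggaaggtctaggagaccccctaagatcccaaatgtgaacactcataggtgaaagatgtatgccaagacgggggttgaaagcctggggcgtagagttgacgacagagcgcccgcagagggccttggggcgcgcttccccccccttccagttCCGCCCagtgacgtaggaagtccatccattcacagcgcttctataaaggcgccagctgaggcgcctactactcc
Jun: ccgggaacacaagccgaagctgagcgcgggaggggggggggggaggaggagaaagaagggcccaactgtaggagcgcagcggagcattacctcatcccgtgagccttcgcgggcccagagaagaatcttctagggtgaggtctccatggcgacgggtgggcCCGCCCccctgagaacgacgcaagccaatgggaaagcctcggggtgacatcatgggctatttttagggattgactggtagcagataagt

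The motifs searched on both strands of each 300-base promoter, from 250 bases before to 50 bases after the start, were TAATT, named in the study as the motif of the Dlx family, the AP-1 site (TGACTCA or TGAGTCA, which are each other's reverse complement), the cyclic AMP response element TGACGTCA, the Egr site GCGTGGGCG, the Sp1 site and the CArG box bound by serum response factor. TAATT was found in 27.0% of all 32851 promoters and, among the 7 genes, at 1 Egr2 start. Neither the AP-1 site, present in 5.20% of all promoters, nor the cyclic AMP response element (1.79%) nor the Egr site (0.612%) occurred in any of the 11 promoters. For these sites only exact matches to the letters given were counted. Variant forms were not searched, so their absence is not shown. The Sp1 site, GGGCGG, occurred in 6 of the 11 promoters, which belong to Egr2, Fos, Fosb, Fosl2 and Jun, and in 35.7% of all promoters. On the given strand alone it was in 3 of the 11 and in 23.4% of all promoters. The CArG box, present in 1.63% of all promoters, was found at Egr2, in 4 of its 5 windows, some of which overlap, at 2 separate places. A match is a description of the letters alone. The 3 stretches of Egr2 that hold TAATT or a CArG box, in capitals, lie on the plus strand at chr10:67537422-67537442, chr10:67537486-67537511 and chr10:67537789-67537814, in this order, and are shown because no other listed promoter of the 10 genes held either motif.
Egr2 TAATT: ccgaagttTAATTttccggaa
Egr2 CArG lower: gatcttctCCTTTTTTGGaaagtctc
Egr2 CArG upper: tcctcagtCCATATATGGgcagcgac
At Egr2 itself, however, no interval was called within 10 kb, and the nearest summit was 349 kb away.

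The promoters of the 7 genes differed in base composition. Their median GC content was 60.0% over 11 promoters, of which 5 belong to Egr2, against 56.3% over all 21263 promoters of protein-coding genes and 63.0% over the 2318 with a Myc-Tag summit within 1 kb of the start. The GC content ranged from 46.7% at Jund to 72.0% at 1 start of Egr2 and was 64.7% at Fosl2. The number of CpG dinucleotides in the 300 bases was 32 at Fosl2, 25 at Fosb, 21 at Junb, 20 at Fos, 15 at Jun and 3 at Jund, with medians of 13 over all protein-coding promoters and 25 over those with a summit. Fosl2, the gene with the interval, thus had the most CpG of the 6 genes with a single listed start, although 1 start of Egr2 had equally many. A summit within 1 kb of a listed start was found for 11.4% of the 17492 protein-coding genes with a listed start and for 1 of these 7 genes. Among all protein-coding promoters of at least the GC content of Jund, the share with such a summit was 13.2%.

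The distance to the nearest called summit varied widely among the genes. The median distance from the gene body to the nearest Myc-Tag summit was 72.4 kb over the 10 genes and 134 kb over all 21887 protein-coding genes, and 3 of the 10 were farther away than that general median. In the Fos family the nearest summit was at 664 bp for Fosl2, 34.8 kb for Fosl1, 35.0 kb for Fosb and 135 kb for Fos. In the Jun family it was at 24.7 kb for Jund, 73.5 kb for Junb and 445 kb for Jun. In the Egr family it was at 71.2 kb for Egr3, 89.5 kb for Egr1 and 349 kb for Egr2. Jun and Egr2 were the only members of the 10 with no summit within 200 kb. Over all protein-coding genes, 57.7% had a summit within that distance, and the median number was 1, as it was over the 10 genes.

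**Figure D2:**
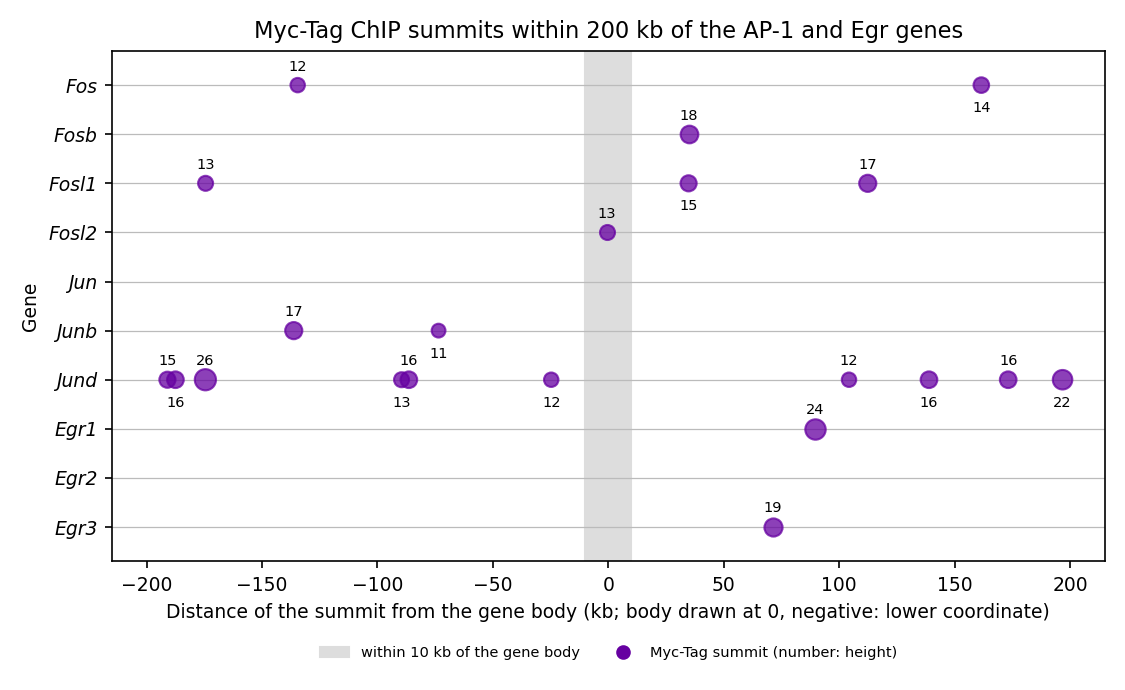
Myc-Tag summits (points, with their height as a number and as point area) within 200 kb of each of the 10 genes (rows), placed by their distance in kb from the nearer edge of the gene body, which is drawn at 0; the grey band is the 10 kb window. Only the Fosl2 row has a point in the band, Jund has 10 points outside it, and Jun and Egr2 have none.

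The summits nearest to the other 9 genes were placed at or inside other protein-coding genes. For Fosb, which encodes a Fos protein with a long and a short form, the nearest summit (chr7:19344889-19345495, height 18) lay inside Ercc1, a DNA repair gene. For Fosl1, which encodes Fra-1, the nearest summit (chr19:5490232-5491382, height 15) lay inside Cfl1, the gene of the actin-severing protein cofilin. For Fos the nearest summit (chr12:85339164-85339690, height 12) lay inside the kinase gene Nek9. None of these intervals reached the Fos family gene it was nearest to.

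For Jund, a Jun protein known for steady rather than induced expression, the nearest summit (chr8:70672718-70673577, height 12) lay 239 bp from Lsm4, a component of the splicing and mRNA decay machinery. For Junb, often described as a restraint on Jun, it (chr8:84903077-84903509, height 11) lay inside the erythroid factor gene Klf1. For Jun it (chr4:94602971-94603815, height 14) lay inside Ift74, a gene of transport in cilia. All 3 heights were below the overall median of 16.

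The tallest of these neighbours were those of Egr1 and Egr3. For Egr1 the nearest summit (chr18:34953888-34954826, height 24) was 65 bp outside Hspa9, which encodes the mitochondrial chaperone mortalin, and 9.49% of all summits were taller. For Egr3 it (chr14:70153547-70154208, height 19) was 65 bp outside Ccar2, and for Egr2 it (chr10:67185511-67186122, height 13) was inside Jmjd1c. In the windows of the 10 genes there were 8 other protein-coding genes, namely Rtn2, Ccdc85b, Ctsw, Fibp, Prdx2, Rnaseh2a, Iqcn and Ado. All 8 overlap windows that held no interval, so that their own count of 0, beside 19.0% of all protein-coding genes, is in part fixed by that choice. Across all 21 summits within 200 kb of the 10 genes, heights ran from 11 to 26 with a median of 16, and 20 were inside or within 1 kb of a protein-coding gene, against 82.5% of all Myc-Tag summits. The input had no call at any of the 21.

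Genes that act with AP-1 and Egr or beside them were described by the same 10 kb rule, from lists set by function. The lists were chosen with earlier results of these data known, so their shares are descriptive and were not tested. The binomial interval covers counting error only and not the choice of genes. Of the 94 genes in these lists, 37 (39.4%, exact 95% binomial interval 29.4 to 49.98%) had an interval, against 19.0% of all protein-coding genes. They were served by 50 separate intervals, none of them called in the input. The median of the tallest summit per gene was 17 in these 37 genes and 16 in all 4168 protein-coding genes with an interval. Chromosome 15 carries 11 of the 94 genes and none of the 10 AP-1 and Egr genes, and its protein-coding genes had an interval in 36.7% of cases against 18.4% elsewhere. Without chromosome 15, 28 of 83 genes (33.7%) had one.

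Among the other basic leucine zipper genes, whose products pair with Fos or Jun proteins or compete for similar sites, 12 of 26 (46.2%) had an interval, against 19.0% of all protein-coding genes, and 7 of 20 (35.0%) without chromosome 15, against 18.4%. The tallest summits were those of Atf4, a regulator of the amino acid stress response (31, with a second summit of 28), and Bach1, a heme-sensing repressor (29 and 12). They were followed by the erythroid factor gene Nfe2 (23 and 17), the Jun partner gene Atf7 (20 and 15) and Maff, which encodes a small Maf protein (19 and 18). Of these, Bach1 lies on chromosome 16 and the other 4 on chromosome 15, and the taller Nfe2 summit was nearest to the heterochromatin gene Cbx5. Jdp2, a repressor that pairs with Jun, lies near Fos on chromosome 12. It had a summit of 14 inside the gene, 162 kb from the body of Fos, and was singled out after its value was seen.

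Among the factors that switch on immediate early promoters, 2 of 6 had an interval, against 19.0% of all protein-coding genes, and 1 of 5 without chromosome 15, against 18.4%. Mrtfa, an actin-controlled partner of serum response factor on chromosome 15, had summits of 33 and 23, and the taller was exceeded by 2.90% of all summits. Elk4, a ternary complex factor, had a summit of 24 at 92 bp from its listed start. Srf itself, Mrtfb, Elk1 and Elk3 had none. In the MAP kinase cascade 6 of 21 genes (28.6%) had an interval, against the same 19.0%. The genes of these lists are long, with median bodies of 41.3 kb and 62.8 kb against 17.2 kb for all protein-coding genes, so that their windows are wide. Among them were the ERK-activating kinase gene Map2k2 (19) and the nuclear kinase gene Rps6ka5 (16 and 14), while the summit counted at Map2k1 (15) lay nearest to Snapc5. Of the 4 genes Egr4, Nab1, Nab2 and Wt1, 0 had an interval (exact 95% binomial interval up to 60.2%), a count too small to set apart from 19.0%. Of these, Nab1 and Nab2 encode corepressors of Egr proteins.

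Of 37 other immediate early genes, 17 (45.9%) had an interval, against 19.0% of all protein-coding genes, and 14 of 33 (42.4%) without chromosome 15, against 18.4%. These genes resembled the 10 in size, with a median body of 5.34 kb. The tallest summits were in the windows of the orphan receptor gene Nr4a1 (31 and 21), the mRNA decay factor gene Zfp36 (21), the survival gene Mcl1 (20), the neuronal factor gene Npas4 (20) and the pseudokinase gene Trib1 (20). Of these, Nr4a1 and Trib1 lie on chromosome 15. For Nr4a1 and Zfp36 the tallest summit was nearest to another gene, Atg101 and Plekhg2 respectively, whereas the Mcl1 summit was 127 bp from the listed Mcl1 start. The share was higher than that of the 10 AP-1 and Egr genes, and this difference between chosen lists was not tested.

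For comparison with other signal-regulated factors, 2 of 11 NF-kappaB subunit and inhibitor genes (18.2%) and 5 of 11 Jak and Stat genes (45.5%) had an interval, against 19.0% of all protein-coding genes. In the former list these were the inhibitor genes Nfkbie (height 19, nearest to Hsp90ab1) and Nfkbia (12). The Nfkbie summit lay 10719 bp from the gene body, and the count fell to 1 when the summit itself had to lie in the window. The share of all protein-coding genes under that rule is not given here. In the latter the tallest summit of Stat4 had a height of 22. The count for the Jak and Stat genes, whose median body of 42.4 kb is also long, fell from 5 to 2 of 11 at heights of at least the median of 16, where 10.7% of all protein-coding genes had an interval. Fosl2 at 13 was lower than Stat4 and 1 unit higher than Nfkbia, a difference without a replicate check. Markers of the labelled cell type were present among the genes with intervals. Of 15 T-cell genes 10 had an interval, of 7 B-cell genes 3, and 0 of 7 myeloid and 0 of 7 stromal and epithelial genes. An interval at a gene is not a measure of its expression, and the part of cell type in the lists was not tested.

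**Figure D3:**
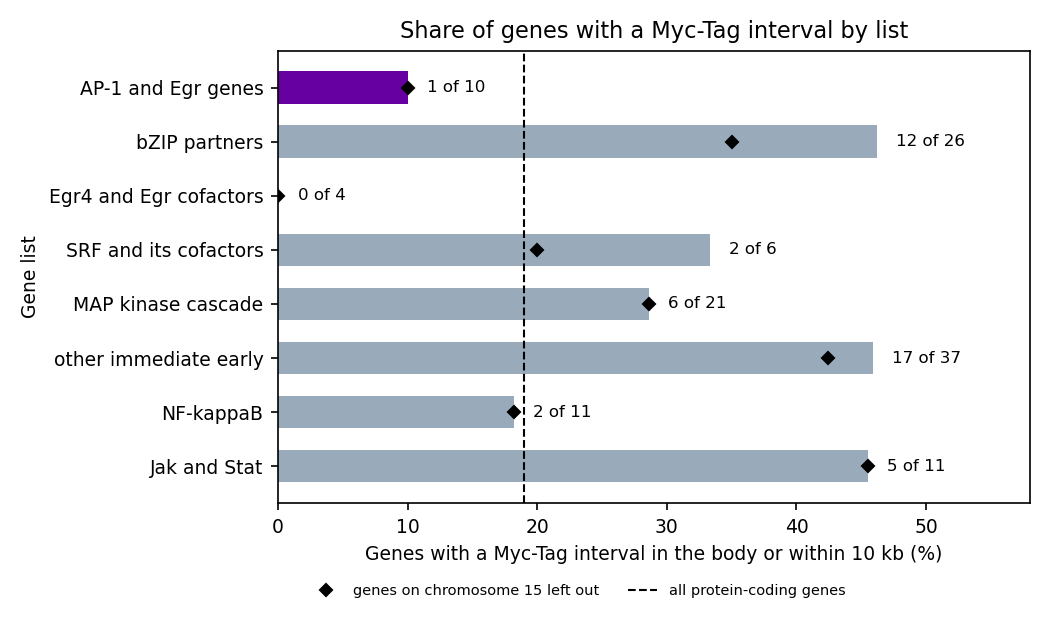
Percentage of genes in each list (rows) with a Myc-Tag interval in the body or within 10 kb (horizontal axis, bars with the counts beside them), with diamonds for the share after leaving out chromosome 15 and a dashed line for all protein-coding genes at 19.0%. The AP-1 and Egr genes (1 of 10) lie left of the line and the other immediate early genes (17 of 37) right of it.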

How the data were processed

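A commercial service, Active Motif, made and sequenced the libraries (Illumina GA II) and ran the primary analysis, in which MACS called the peaks by p-value. The submitters' processing notes name BWA and mm9, whereas the browser view of the study is labelled mm10. With GRCm38.p6 (mm10) coordinates, 54.8% of the 3477 Myc-Tag summits lay within 1 kb of a RefSeq start, and the files were read as mm10. Software versions, the calling threshold and the control used for calling are not given in the sources used here. The value that the authors deposited with each summit is a score, its height, as a whole number. Of the 3477 summits, 3329 lie on a multiple of 16 bp.

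Each summit was joined to its interval, and intervals were assigned to protein-coding RefSeq genes by an overlap of at least 1 bp with the body or the 10 kb on either side. Starts and strands came from the RefSeq promoter table. Intervals are counted from 1, and summits are as deposited. All 10 genes were named, with the 5 genes of tallest summit in each functional list and the 2 tallest in each comparison list. The members and lists were chosen with earlier results of these data known. With 1 library per group, no p-value was computed. Intervals for shares are exact (Clopper-Pearson) and cover counting error only. Scripts ran under Python 3.11.15 with pandas 2.3.3, numpy 2.4.6, matplotlib 3.10.9 and scipy 1.17.1, and the assignment was tested on simulated data. Alternatives varied the distance, height threshold, overlap, nearest gene and input calls. Leaving out chromosome 15 was chosen after seeing the data. The sequence under the intervals was not analysed here, and the results for some genes of the lists are not reported here.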

Additional observations from a re-analysis of the deposited data

How the results depend on the processing

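The count of 1 AP-1 or Egr gene and 1 interval, both at Fosl2, was the same within 1 kb, with the summit inside the window, with intervals assigned to the nearest gene only and without intervals called in the input. The share of all protein-coding genes under these rules is not given here, so these counts are not read against a background. In an alternative chosen after seeing the data, 1 gene also had a summit within 1 kb of a listed start. Of all protein-coding genes with a listed start, 11.4% had such a summit. Merging intervals closer than 10 kb also left 1 interval. Both counts were 0 in the gene body alone, where 13.4% of all protein-coding genes had an interval, 0 at heights of at least the median of 16, where 10.7% had one, 0 at heights of at least the upper quartile of 19, where 6.05% had one, and 4 within 50 kb, where Fosb, Fosl1 and Jund were added and the share of all protein-coding genes was 33.3%. A summit within 500 bp of a gene end was found for 0 of the 10 genes, and within 2 kb for 1. The share of all protein-coding genes at these distances is not given here, so neither count is read against a background. Of all Myc-Tag summits, 48.7% lay within 500 bp of a listed start and 58.1% within 2 kb, which are shares of summits and not of genes. The 37 of 94 genes of the functional lists became 17 of 94 at heights of at least the upper quartile, beside the same 6.05% of all protein-coding genes. TAATT was found at Egr2 also when the given strand alone was read. No paired analysis was possible because there was 1 library per group. The unknown depth and the single library limit every height, and weaker sites that were not called are not in the lists.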

Other observations

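The neighbourhood of Jund held more summits than those of the other 9 genes. Within 200 kb of its body there were 10, with heights from 12 to 26 and a median of 16, whereas the other 9 genes had between 0 and 3. Only 83 of 21887 protein-coding genes (0.379%) had 10 or more. The tallest was at Kxd1 (26), and others lay in Rex1bd (15), Mast3 (12) and Arrdc2 (16). Of the 10, 9 were inside or within 1 kb of a protein-coding gene, and none was in the window of Jund itself. The nearest on the side of lower coordinates was 24.7 kb away at Lsm4 and the nearest on the other side 104 kb away in Mast3. The neighbourhood was singled out after its values were seen.

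The region of chromosome 12 that holds Fos also holds its relatives Jdp2 and Batf, both basic leucine zipper genes. Of these 3 genes, Jdp2 had an interval, of height 14, and Fos and Batf had none within 10 kb. On chromosome 12, 19.6% of protein-coding genes had one by the same rule. Of all Myc-Tag summits, 59.9% were taller than that of Jdp2. The 3 genes were singled out after the Jdp2 value was seen, and their count was not tested.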
